A study of Citrullus lanatus with 26 samples.

Results

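The 62 miRNA names described here are the novel_miR names of watermelon fruit flesh whose abundance was level between 0 and 30 DAP, the fruit-age unit of the labels. They are 62 of the 179 novel_miR names listed in 18 small RNA libraries, or 34.6% of them. All 18 libraries are flesh of Citrullus lanatus subsp. vulgaris cv. 97103, at 0, 1, 5, 10, 20 and 30 DAP with 3 libraries per age, and no treatment or other genotype enters these values. The series also holds 8 libraries of 97103 and of germplasm PI296341FR under another naming, whose numbers were not taken as the same molecules and are not used here. Nothing in the labels ties the 3 replicates of an age to different plants or fruits. Every p-value below therefore measures the spread between libraries only, and that spread may be technical.

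The 62 names were chosen by the data themselves. Counts scaled to each file's total (CPM) were averaged over the 3 libraries of 30 DAP and of 0 DAP, and the log2 ratio of 30 over 0 DAP, with 5 CPM added to each mean, was centred on the median of all 208 listed names. A novel_miR name was kept where the centred value lay above -0.6 and below 0.6. Levelness between 0 and 30 DAP is therefore the selection and not a result, and no test of that contrast is given. At the upper limit, novel_miR_157 at 0.60 and novel_miR_163 at 0.59 lay just inside, and novel_miR_114 at 0.66 and novel_miR_70 at 0.74 just outside. At the lower limit, novel_miR_72 at -0.59 and novel_miR_81 at -0.58 lay just inside, and novel_miR_111 at -0.60 and novel_miR_107 at -0.61 just outside. The other novel_miR names split into 52 above the upper limit and 65 below the lower one.

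Plant miRNAs are short RNAs that Dicer-like enzymes cut from hairpin precursors. Loaded into an Argonaute protein, they pair with target transcripts, which are then cleaved or translated less. Conserved families act on transcription factors that shape flowers and fruits, while newly predicted miRNAs often belong to 1 species and come with no assigned role. How the novel_miR names were predicted is not given in the sources used here. The tables give each novel_miR name and its count but no sequence, position or target, so the members are described by their levels alone.

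Level means level relative to the other names. On file-total CPM, all 62 members were lower at 30 DAP than at 0 DAP, by between -1.62 and -0.43 on the log2 scale before centring, beside a median of -1.03 over all 208 names. The members held between 13.9% and 16.2% of the counts in the 3 libraries at 30 DAP, against between 30.9% and 35.6% at 0 DAP. All values from here on are CPM scaled with trimmed-mean (TMM) factors, which assume that most names do not change. The factors ran from 0.53 at 30 DAP to 1.40 at 1 DAP. The F test given below called 81.9% of all tested names as differing among 1, 5, 10 and 20 DAP, so that assumption cannot be taken as met. On the TMM scale the summed members lay between 230308 and 262775 CPM at 30 DAP and between 247936 and 256469 CPM at 0 DAP, and were highest at 5 DAP, between 297734 and 321343 CPM. A few abundant names weigh heavily in that sum. The mean of novel_miR_5 was 29932 CPM at 0 DAP and 70995 CPM at 5 DAP, and that of novel_miR_12 was 17699 and 29546 CPM. The median log2 difference of the members at 5 DAP from the mean of 0 and 30 DAP was 0.03. Without the factors, the median log2 difference from the mean of 0 and 30 DAP over all 204 tested names moves to 0.55 at 1 DAP, 0.22 at 5 DAP, 0.42 at 10 DAP and -0.05 at 20 DAP, against 0.04, 0.15, 0.03 and -0.11 with them. A change given below is a change relative to that trimmed mean, and which scaling matches the amount per cell was not tested. In bulk flesh, fewer cells of a type and less RNA per cell cannot be told apart.

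**Figure D1:**
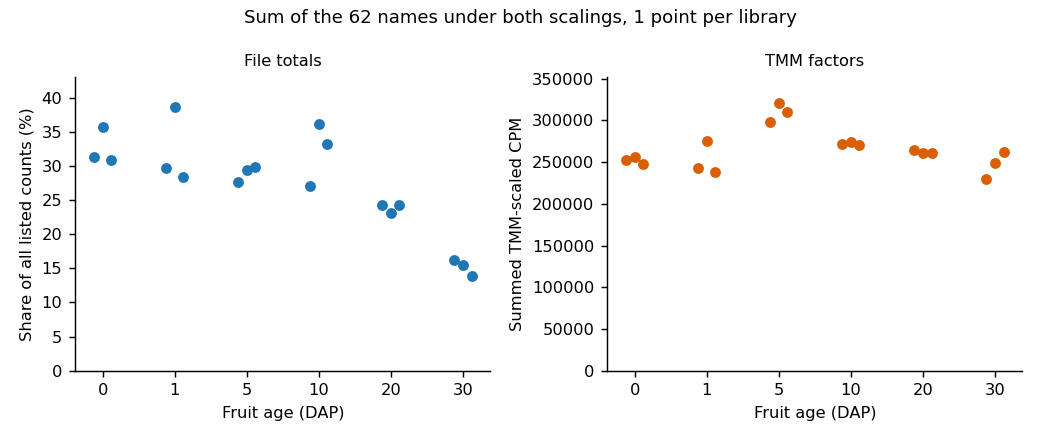
Sum of the 62 names in each of the 18 libraries against fruit age in DAP, as a share of all listed counts in percent (left) and in TMM-scaled CPM (right), with 1 point per library. As a share the 3 libraries at 30 DAP lie below all others, and in TMM-scaled CPM they lie between 230308 and 262775 CPM, overlapping those at 0 DAP.

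Every member was counted in every library. The listed totals ran from 62050 to 153755 counts per library, the lowest count of a member in any library was 4, and the members' totals over the 18 libraries ran from 411 to 73053 counts. All 62 passed the filter on low counts, which left 204 names in the fit. Replicate libraries of an age correlated at r between 0.963 and 0.992, and no pair agreed within sampling noise. Between replicates, the SD of a member was a median of 12.3% of its mean, highest at 30 DAP (16.4%) and lowest at 5 DAP (9.56%).

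On the TMM scale the members were mostly steady across the ages in between; without scaling factors 12 were. A member is called steady where the highest and lowest of its 6 age means, on log2 of CPM plus 5, lie less than 1 apart, peaking or dipping where a middle age lies at least 1 above or below both 0 and 30 DAP, and intermediate otherwise. By that description 53 members were steady, 3 peaked, 1 dipped and 5 were intermediate with TMM factors, and without factors 2 peaked (not novel_miR_5) and 0 dipped. The range over the age means was 0.21 for the steadiest member, a median of 0.67 and 1.84 for the most variable, beside a median of 1.52 over all 204 tested names, of which 61 were steady. Part of that difference is fixed by the choice of members, since 0 and 30 DAP enter the range. The 12 libraries at 1, 5, 10 and 20 DAP were not used in choosing them: an F test in edgeR's quasi-likelihood fit called a difference among those ages in 31 of 62 members, beside 81.9% of all tested names at an adjusted p under 0.05. Of the 53 steady members, 23 were among those 31, so a steady member may still differ between ages by less than 1.

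**Figure D2:**
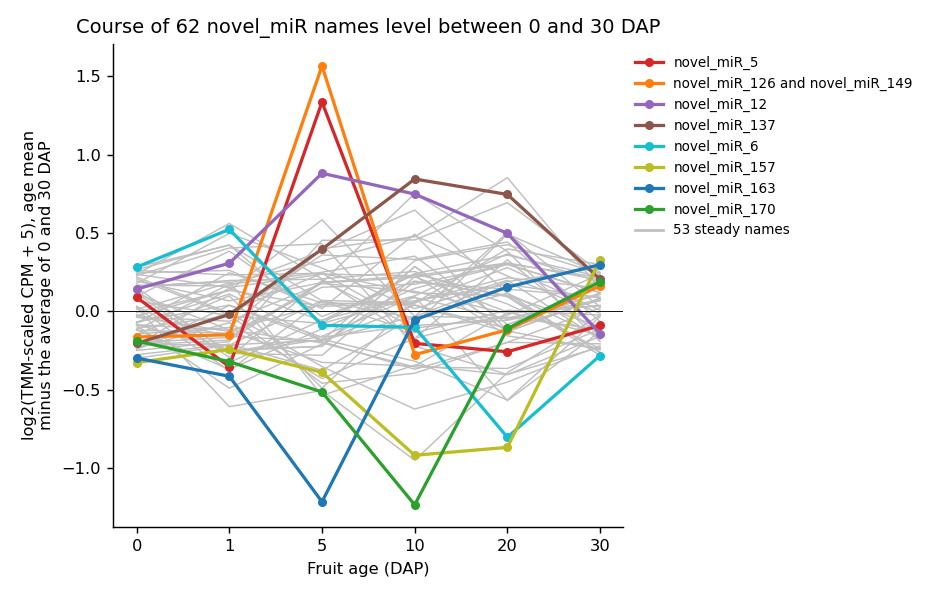
Course of the members over fruit age in DAP, as the log2 of the age mean of TMM-scaled CPM plus 5 minus its average over 0 and 30 DAP, with 1 line per member. Each of the 53 steady members (grey) spans less than 1, while novel_miR_5, novel_miR_126 and novel_miR_149 stand up at 5 DAP and novel_miR_170 drops at 10 DAP.

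The steadiest member was novel_miR_155. It had 7024, 7801 and 7299 CPM at 0 DAP, 7054, 9470 and 6836 at 1 DAP, 7451, 7310 and 7823 at 5 DAP, 7482, 9062 and 8788 at 10 DAP, 8716, 6968 and 7305 at 20 DAP, and 9105, 9716 and 6843 at 30 DAP. The libraries of all 6 ages overlapped. novel_miR_117 was nearly as flat with a range of 0.23, its age means lying between 5574 ± 310 CPM at 5 DAP and 6547 ± 983 CPM at 30 DAP (SD, n = 3 each). novel_miR_44 had a range of 0.24, between 1296 ± 244 CPM at 1 DAP and 1531 ± 140 CPM at 5 DAP. novel_miR_174, novel_miR_134 and novel_miR_53 each had a range of 0.29. None of these 6 was called at any of the 4 middle ages or by the F test in edgeR.

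novel_miR_53 was also among the most abundant members, with age means between 13276 ± 374 CPM at 5 DAP and 16275 ± 2779 CPM at 1 DAP. novel_miR_75 had a range of 0.35 and was not called at any middle age either. novel_miR_142 had a range of 0.39 and was nevertheless called lower at 5 DAP (log2 difference from the mean of 0 and 30 DAP -0.33, SE 0.12, edgeR adjusted p = 0.0448) and at 10 DAP (-0.35, SE 0.12, edgeR adjusted p = 0.029). Its 3 libraries at 5 DAP (2566, 2165 and 2381 CPM) and its 3 at 10 DAP (2045, 2577 and 2371 CPM) all lay below the 6 at 0 and 30 DAP, the lowest of which had 2586 CPM.

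How flat the data can show a member to be is set by the interval of each difference. The half-width of the 95% interval of a member's difference from the mean of 0 and 30 DAP was a median of 0.33 on the log2 scale, between 0.20 and 0.96. For 48 of the 62 members, all of them steady, the intervals at all 4 middle ages lay within -1 and 1. For the other 5 steady members a change past 1 at some age lay inside the interval. In all, 19 members were called neither at any of the 4 middle ages nor by the F test in edgeR, a count not taken over all tested names. For those 19 members a p above the threshold does not show that they stayed level.

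The levels of the members spread widely. Their means over the 18 libraries ran from 197 CPM for novel_miR_157 to 32877 CPM for novel_miR_5, with a median of 2115 CPM, and 48 members exceeded 1000 CPM. CPM are not per length, and the lengths of the molecules are not given. The 6 most abundant members, novel_miR_5, novel_miR_12, novel_miR_119, novel_miR_38, novel_miR_69 and novel_miR_53, held 46.0% of all member counts. Of these 6, novel_miR_5 peaked at 5 DAP, novel_miR_12 was called higher at every middle age, novel_miR_119 at 10 DAP and novel_miR_38 at 1 DAP, novel_miR_69 was called lower at 5 DAP, and novel_miR_53 was called at none.

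**Figure D3:**
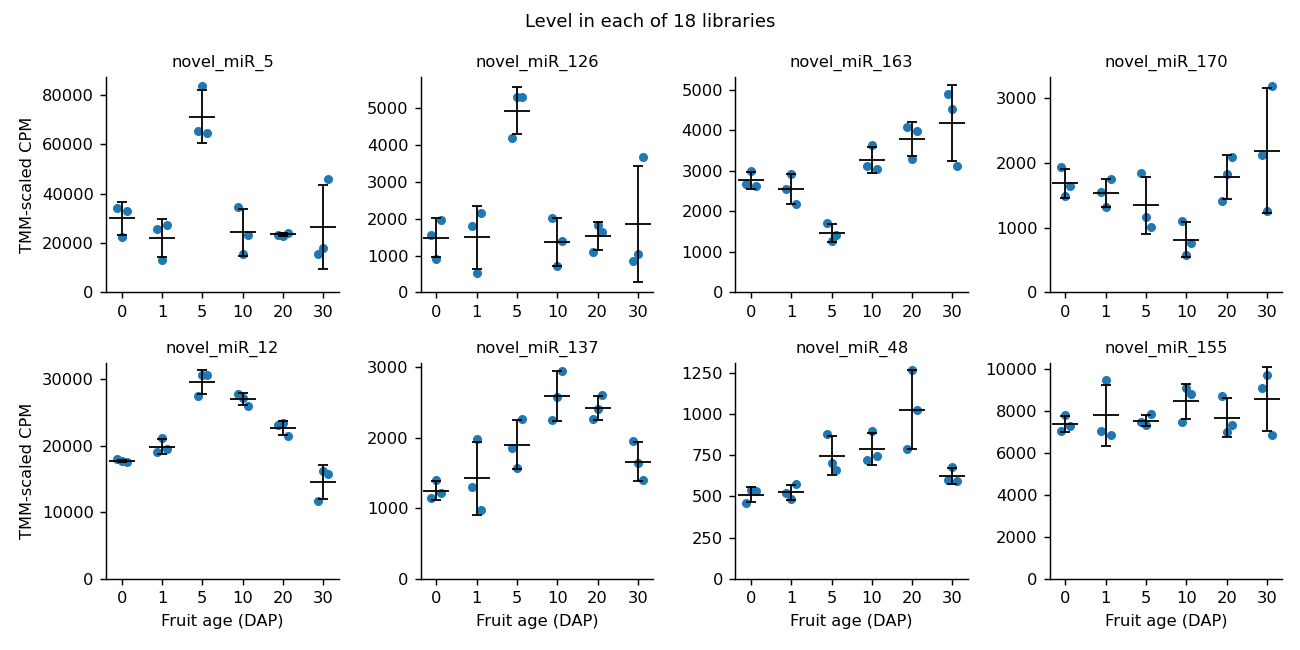
TMM-scaled CPM of named members in each library against fruit age in DAP, on a linear axis from 0, with 1 point per library and the mean ± SD (n = 3) in black. At 5 DAP the 3 libraries of novel_miR_5 lie above those of every other age and those of novel_miR_163 lie below them, whereas those of novel_miR_155 overlap across all 6 ages.

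The peaks all fell at 5 DAP. novel_miR_5 had 65174, 83381 and 64429 CPM at 5 DAP, against 34278, 22470 and 33047 CPM at 0 DAP and 15624, 17792 and 45827 CPM at 30 DAP. In the neighbouring ages it had 25838, 13037 and 27142 CPM at 1 DAP and 34554, 15573 and 23068 CPM at 10 DAP, and at 20 DAP 23327, 23010 and 24206 CPM. The 3 libraries at 5 DAP lay above all 15 others, with replicate 3 of 30 DAP the nearest. The log2 difference of 5 DAP from the mean of 0 and 30 DAP was 1.34 (SE 0.31, edgeR adjusted p = 0.00224). The step to 5 from 1 DAP was 1.69 (SE 0.36, edgeR adjusted p = 0.00116) and that to 10 from 5 DAP -1.54 (SE 0.36, edgeR adjusted p = 0.00423).

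novel_miR_126 and novel_miR_149 peaked with it. Their counts were identical in all 18 libraries, so they are 1 pattern under 2 names, and how a read matching both was counted is not given in the sources used here. They had 4194, 5302 and 5315 CPM at 5 DAP, against 1559, 917 and 1977 CPM at 0 DAP and 868, 1040 and 3684 CPM at 30 DAP. The 5 DAP libraries again lay above all others, and again replicate 3 of 30 DAP stood apart from its 2 partners. The log2 difference at 5 DAP was 1.56 (SE 0.43, edgeR adjusted p = 0.00561), the step to 5 from 1 DAP 1.72 (SE 0.49, edgeR adjusted p = 0.00824), and that to 10 from 5 DAP -1.85 (SE 0.49, edgeR adjusted p = 0.00946). At 10 DAP they had 2015, 706 and 1395 CPM, which overlapped the libraries at 0 and 30 DAP.

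The selection of novel_miR_5 rests on replicate 3 of 30 DAP. Its centred log2 ratio of 30 over 0 DAP was -0.28 with all libraries and -0.73 without that one, which is outside the limits, while that of novel_miR_126 was 0.21 and -0.51, still inside. Among the members described below, novel_miR_163, novel_miR_170, novel_miR_157, novel_miR_137, novel_miR_115, novel_miR_69, novel_miR_22, novel_miR_6, novel_miR_72, novel_miR_81 and novel_miR_141 also fell outside the limits without 1 or more of the 6 libraries at 30 and 0 DAP. The 5 DAP differences of novel_miR_5, novel_miR_126 and novel_miR_149 were called under every alternative tried, each left-out library included.

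The values of cme-miR159a and cme-miR159b are set beside these, names of a family that in Arabidopsis acts on GAMYB-like transcription factors; both lay inside the same limits and were chosen after their values were seen. cme-miR159a was higher at 5 DAP by 1.16 on the log2 scale (SE 0.26, edgeR adjusted p = 0.00211), and its step to 10 from 5 DAP, -0.70, did not pass (SE 0.31, edgeR adjusted p = 0.0786). cme-miR159b was not called at 5 DAP (0.63, SE 0.26, edgeR adjusted p = 0.0606) and was lower at 20 DAP by -0.81 (SE 0.28, edgeR adjusted p = 0.0257). Within ages, novel_miR_5 and cme-miR159a were both lowest in replicate 2 at 0, 1 and 10 DAP and both highest in replicate 3 at 30 DAP. At 5 DAP both were highest in replicate 2. At 20 DAP they went opposite ways: novel_miR_5 was lowest in replicate 2 and highest in replicate 3, and cme-miR159a the reverse. The ratio of their counts lay between 0.270 and 0.292 at 0 DAP, 0.160 and 0.176 at 1 DAP, 0.258 and 0.326 at 5 DAP, 0.143 and 0.169 at 10 DAP, 0.243 and 0.288 at 20 DAP, and 0.180 and 0.289 at 30 DAP. The ratio of the counts of novel_miR_5 to those of novel_miR_126 lay between 12.1 and 24.5, with a median of 16.6.

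The comparison at 5 DAP called 15 members, 8 higher and 7 lower than the mean of 0 and 30 DAP, beside 38.2% of all tested names (25% higher, 13.2% lower). Without scaling factors 7 were higher and 2 lower, and with RLE factors 5 and 13. The median log2 difference was 0.03 over the members and 0.15 over all tested names, and 58 of 62 members lay within -1 and 1, as did 161 of 204 names. All 3 libraries at 5 DAP lay above all 6 of 0 and 30 DAP for 7 members, beside 6.37% of all names, and below them for 6, beside 6.37%. Here and at the other middle ages, such counts are partly fixed by the choice of members. Close levels at 0 and 30 DAP narrow the span of those 6 libraries, and the shares of all names include the members. The same holds for the counts called and those within -1 and 1. A name with unlike ends differs from their mean wherever it resembles 1 end. The count of higher members was 4 or 5 without any replicate of 5 DAP, replicate 2 of 0 DAP, 1 or 2 of 20 DAP, or 1 or 2 of 30 DAP, and that of lower ones 4 without replicate 1 of 0 DAP, 3 of 10 DAP or 3 of 20 DAP. Beyond the 3 peaks, the higher members were novel_miR_12, at 0.88, and 4 smaller ones led by novel_miR_35, at 0.58 (SE 0.17, edgeR adjusted p = 0.0113). novel_miR_35 had 794, 724 and 487 CPM at 5 DAP, against 353, 470 and 483 CPM at 0 DAP and 461, 340 and 559 CPM at 30 DAP. Its replicate 3 at 5 DAP lay among those of 30 DAP, and its call was lost without replicate 1 or 2 of 5 DAP or replicate 1 or 2 of 30 DAP.

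The deepest fall at 5 DAP was that of novel_miR_163. It had 1708, 1270 and 1407 CPM at 5 DAP, against 2671, 3002 and 2626 CPM at 0 DAP and 4889, 4538 and 3125 CPM at 30 DAP. The 5 DAP libraries lay below all others. In the other middle ages it had 2556, 2922 and 2175 CPM at 1 DAP, 3128, 3649 and 3055 CPM at 10 DAP, and 4071, 3300 and 3991 CPM at 20 DAP. The log2 difference from the mean of 0 and 30 DAP was -1.22 (SE 0.15, edgeR adjusted p = 1.08e-05). The step to 5 from 1 DAP was -0.80 (SE 0.17, edgeR adjusted p = 0.000898) and that to 10 from 5 DAP 1.17 (SE 0.17, edgeR adjusted p = 5.15e-05). It counts as intermediate and not as dipping because its 5 DAP mean lay less than 1 below that of 0 DAP, and it is a member only just inside the upper limit.

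The other falls at 5 DAP were shallower. novel_miR_3 had 3328, 2775 and 2972 CPM at 5 DAP, against 4373, 5155 and 5194 CPM at 0 DAP and 4181, 4378 and 3230 CPM at 30 DAP. The 5 DAP libraries lay below all of 0 DAP and overlapped replicate 3 of 30 DAP. The log2 difference was -0.54 (SE 0.12, edgeR adjusted p = 0.00264), and its step to 5 from 1 DAP was -0.73 (SE 0.14, edgeR adjusted p = 0.000353). It was also lower at 10 DAP (-0.34, edgeR adjusted p = 0.0329) and at 20 DAP (-0.40, edgeR adjusted p = 0.0148), the last lost without scaling factors (edgeR adjusted p = 0.103). novel_miR_132 was lower by -0.46 at 5 DAP (SE 0.13, edgeR adjusted p = 0.00925), its libraries of 1390, 1221 and 1392 CPM lying below the lowest of 0 and 30 DAP, 1499 CPM; the call was lost without scaling factors (edgeR adjusted p = 0.0881).

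novel_miR_69, an abundant member, had 11510, 12215 and 12390 CPM at 5 DAP, against 13166, 13183 and 12347 CPM at 0 DAP and 19167, 20671 and 16969 CPM at 30 DAP. Its log2 difference at 5 DAP was -0.38 (SE 0.10, edgeR adjusted p = 0.00559), and the 5 DAP libraries overlapped those of 0 DAP. That call was lost without scaling factors (edgeR adjusted p = 0.0942). It was higher at 10 than at 5 DAP by 0.34 (SE 0.11, edgeR adjusted p = 0.0223). The ratio of the counts of novel_miR_53 to those of novel_miR_69 lay between 0.801 and 0.878 at 30 DAP, against between 1.07 and 1.15 at 0 DAP. novel_miR_141 was lower at 5 DAP by -0.43 (SE 0.16, edgeR adjusted p = 0.0495). That call was lost without any 1 of replicates 1 and 3 of 0 DAP, replicate 1 of 1 DAP, replicate 2 of 5 DAP, replicate 3 of 10 DAP or replicate 3 of 20 DAP, and without scaling factors (edgeR adjusted p = 0.18).

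At 10 DAP, 17 members were called, 8 higher and 9 lower, beside 42.6% of all tested names (23.5% higher, 19.1% lower). Without scaling factors 32 were higher and 2 lower. The median log2 difference was 0.06 over the members and 0.03 over all tested names, and 61 of 62 members lay within -1 and 1, as did 149 of 204 names. All 3 libraries lay above all 6 of 0 and 30 DAP for 6 members, beside 8.33% of all names, and below them for 5, beside 3.92%. The count of higher members was 4 with replicate 2 of 10 DAP left out and 5 with replicate 3 of 0 DAP left out, and that of lower ones 5 without replicate 1 of 10 DAP or 2 of 30 DAP.

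The single dipping member was novel_miR_170, with its low point at 10 DAP. It had 1105, 579 and 757 CPM at 10 DAP, against 1932, 1486 and 1640 CPM at 0 DAP and 2126, 1259 and 3195 CPM at 30 DAP. The 10 DAP libraries lay below all of both ends, which among themselves spread most at 30 DAP. At 1, 5 and 20 DAP its means were 1539 ± 215, 1344 ± 446 and 1782 ± 342 CPM (SD, n = 3 each). The log2 difference of 10 DAP from the mean of 0 and 30 DAP was -1.25 (SE 0.26, edgeR adjusted p = 0.00163). The return was steep: the step to 20 from 10 DAP was 1.12 (SE 0.30, edgeR adjusted p = 0.0152), whereas that to 10 from 5 DAP, -0.73, did not pass (SE 0.30, edgeR adjusted p = 0.0617). Leaving out replicate 1 of 0 DAP, or replicate 2 or 3 of 10 DAP, took its dip below the 1 needed for the description, as did having no scaling factors, while the test called it each time. Without replicate 2 of 30 DAP its centred log2 ratio of 30 over 0 DAP was 0.68, outside the limits, against 0.32 with all libraries.

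novel_miR_97 had a similar low at 10 DAP, with 346, 186 and 246 CPM, against 515, 508 and 521 CPM at 0 DAP and 407, 440 and 646 CPM at 30 DAP. The 3 libraries lay below all 6, and the log2 difference was -0.97 (SE 0.24, edgeR adjusted p = 0.00353). It was already low at 1 DAP, with 378, 213 and 400 CPM, by -0.62 (SE 0.23, edgeR adjusted p = 0.0289), a call lost without replicate 2 of 1 DAP or replicate 2 or 3 of 30 DAP, without scaling factors (-0.12, edgeR adjusted p = 0.621) and without the filter (edgeR adjusted p = 0.0546). novel_miR_157, the least abundant member, was lower at 10 DAP by -0.93 (SE 0.32, edgeR adjusted p = 0.0268). Its libraries there had 113, 107 and 173 CPM, against 217, 197 and 184 CPM at 0 DAP and 124, 460 and 367 CPM at 30 DAP, so that they overlapped replicate 1 of 30 DAP. Leaving out replicate 1 of 0 DAP, replicate 1 or 2 of 10 DAP, or replicate 2 or 3 of 30 DAP ended that call, as did having no scaling factors (-0.51, edgeR adjusted p = 0.166).

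novel_miR_49 was lower at 10 DAP, with 775, 892 and 830 CPM, against 1410, 1637 and 1443 CPM at 0 DAP and 1169, 1060 and 1082 CPM at 30 DAP. All 3 libraries lay below both ends, and the log2 difference was -0.63 (SE 0.14, edgeR adjusted p = 0.00185). Without scaling factors it was -0.22 and not called (edgeR adjusted p = 0.318). It was also lower at 5 DAP (-0.35, SE 0.13, edgeR adjusted p = 0.0491) and at 20 DAP (-0.45, SE 0.14, edgeR adjusted p = 0.0159), the last lost without replicate 1 or 2 of 20 DAP or without scaling factors (edgeR adjusted p = 0.0824). novel_miR_132 stayed low at 10 DAP, by -0.40 (SE 0.13, edgeR adjusted p = 0.0207), a call lost without replicate 1 or 2 of 10 DAP, with 1 name per identical pattern (edgeR adjusted p = 0.082) and without scaling factors, where the difference turned to 0.0072.

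Among the members higher at 10 DAP, novel_miR_119 was the most abundant. It had 21176, 28556 and 27193 CPM at 10 DAP, against 18048, 19400 and 14782 CPM at 0 DAP and 11213, 13654 and 15084 CPM at 30 DAP. The 10 DAP libraries lay above all 6. The log2 difference was 0.75 (SE 0.16, edgeR adjusted p = 0.00145), and 10 DAP was higher than 5 DAP by 0.57 (SE 0.19, edgeR adjusted p = 0.0229). novel_miR_22 had 9783, 9781 and 9379 CPM at 10 DAP, against 6915, 7247 and 6593 CPM at 0 DAP and 7228, 4678 and 4556 CPM at 30 DAP. It lay above all 6 libraries by a log2 difference of 0.65 (SE 0.13, edgeR adjusted p = 0.000794), and 20 DAP was below 10 DAP by -0.53 (SE 0.15, edgeR adjusted p = 0.0178). novel_miR_39 was higher by 0.48 (SE 0.18, edgeR adjusted p = 0.0365), a call lost without replicate 1 or 3 of 0 DAP, replicate 2 or 3 of 10 DAP, or replicate 2 or 3 of 30 DAP, and with RLE factors (edgeR adjusted p = 0.06).

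Some members were raised over a span of ages and made no sharp peak. novel_miR_12 was the only member called at all 4 middle ages. It had 17912, 17656 and 17528 CPM at 0 DAP, 18956, 21070 and 19493 at 1 DAP, 27476, 30640 and 30523 at 5 DAP, 27771, 27131 and 25937 at 10 DAP, 23025, 23437 and 21464 at 20 DAP, and 11656, 16133 and 15799 at 30 DAP. At each of the 4 middle ages its 3 libraries lay above all 6 of 0 and 30 DAP. The log2 differences were 0.31 at 1 DAP, 0.88 at 5 DAP, 0.75 at 10 DAP and 0.50 at 20 DAP, each with SE 0.11, and the edgeR adjusted p at 5 DAP was 7.8e-06. Its range of 1.02 over the age means puts it just past the limit for steady.

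novel_miR_137 was highest at 10 and 20 DAP. It had 2248, 2577 and 2949 CPM at 10 DAP and 2257, 2401 and 2603 CPM at 20 DAP, against 1139, 1395 and 1214 CPM at 0 DAP and 1949, 1639 and 1397 CPM at 30 DAP. Both middle ages lay above all 6 libraries of the ends. The log2 differences were 0.85 at 10 DAP (SE 0.18, edgeR adjusted p = 0.00145) and 0.75 at 20 DAP (SE 0.19, edgeR adjusted p = 0.0038). At 5 DAP it had 1859, 1576 and 2261 CPM and was not called (0.40, SE 0.19, edgeR adjusted p = 0.0986).

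At 20 DAP, 15 members were called, 10 higher and 5 lower, beside 47.5% of all tested names (26% higher, 21.6% lower). Without scaling factors 8 were higher and 1 lower. The median log2 difference was 0.03 over the members and -0.11 over all tested names, and all 62 members lay within -1 and 1, as did 163 of 204 names. All 3 libraries lay above all 6 of 0 and 30 DAP for 10 members, beside 13 of all 204 names (6.37%) with the members included. They lay below them for 3, beside 2.45%. The count of higher members was 6 without replicate 2 of 20 DAP, and that of lower ones 3 without replicate 1 or 3 of 20 DAP. The age mean was highest at 20 DAP for 16 members, more than at any other age, and lowest there for 6. Those 2 counts were not taken over all names. A highest mean is not a call, and 10 members were called higher at this age.

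novel_miR_48 was the member with the largest rise at 20 DAP. It had 786, 1267 and 1024 CPM at 20 DAP, against 461, 538 and 534 CPM at 0 DAP and 602, 680 and 594 CPM at 30 DAP. All 3 libraries lay above the 6, with a log2 difference of 0.85 (SE 0.16, edgeR adjusted p = 0.000536). Its range over the age means was 1.00 after rounding and just short of that, so it counts as steady by the narrowest margin. novel_miR_115 had 776, 913 and 1197 CPM at 20 DAP, against 468, 569 and 458 CPM at 0 DAP and 762, 640 and 716 CPM at 30 DAP. It too lay above the 6, by 0.68 (SE 0.17, edgeR adjusted p = 0.00408), and was also higher by 0.46 at both 5 and 10 DAP (SE 0.17 each, edgeR adjusted p of 0.037 and 0.0322).

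novel_miR_35, which had been high at 5 DAP, had a second high at 20 DAP, with 635, 633 and 625 CPM. Between them, at 10 DAP, it had 451, 459 and 392 CPM. The log2 difference at 20 DAP was 0.50 (SE 0.19, edgeR adjusted p = 0.0335), and 10 DAP was below 5 DAP by -0.62 (SE 0.19, edgeR adjusted p = 0.0213), while the step to 20 from 10 DAP was 0.54 and did not pass (SE 0.21, edgeR adjusted p = 0.0682). The 20 DAP call was lost without replicate 1 or 2 of 0 DAP, replicate 2 of 1 DAP, any replicate of 20 DAP or replicate 2 of 30 DAP.

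novel_miR_6 had the largest fall at 20 DAP. It had 191, 162 and 312 CPM at 20 DAP, against 536, 425 and 470 CPM at 0 DAP and 461, 240 and 262 CPM at 30 DAP, and the libraries of 20 and 30 DAP overlapped. The log2 difference was -0.86 (SE 0.28, edgeR adjusted p = 0.019), lost without replicate 1 or 2 of 20 DAP. novel_miR_122 had 897, 722 and 677 CPM at 20 DAP, below all 6 libraries of 0 and 30 DAP, the lowest of which had 1046 CPM. Its log2 difference was -0.56 (SE 0.17, edgeR adjusted p = 0.0141), lost without replicate 3 of 20 DAP or without scaling factors (edgeR adjusted p = 0.0699). novel_miR_4 was lower by -0.36 (SE 0.14, edgeR adjusted p = 0.0422), with 1008, 1031 and 902 CPM against 1370, 1296 and 1437 CPM at 0 DAP and 1205, 1200 and 1100 CPM at 30 DAP. Its libraries did not overlap those of the ends, yet its call was lost without any 1 of 9 libraries: replicates 1 and 3 of 0 DAP, 1 of 1 DAP, 3 of 5 DAP, 1, 2 and 3 of 20 DAP, and 1 and 2 of 30 DAP. It was also lost without scaling factors, with a minimum count of 50 and with 1 name per identical pattern (edgeR adjusted p of 0.162, 0.0571 and 0.0542).

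At 1 DAP, 12 members were called, 7 higher and 5 lower, beside 55.4% of all tested names (33.3% higher, 22.1% lower). Without scaling factors 35 were higher and 0 lower. The median log2 difference was -0.04 over the members and 0.04 over all tested names. All 62 members lay within -1 and 1, as did 152 of 204 names. All 3 libraries lay above all 6 of 0 and 30 DAP for 2 members, beside 3.92% of all names, and below them for 1, beside 0.49%. The count of higher members was 3 or 4 without replicate 3 of 0 DAP, 2 of 1 DAP, any of 5 DAP, or 1 or 2 of 20 DAP. That of lower ones was 1 or 2 without replicate 1 or 3 of 1 DAP or 2 or 3 of 30 DAP, and 8 to 10 without replicate 2 of 0 DAP, 2 of 1 DAP, 1 or 2 of 5 DAP, or 1 or 2 of 20 DAP.

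novel_miR_38 had the largest rise at 1 DAP. It had 21982, 26890 and 21300 CPM at 1 DAP, against 17295, 19589 and 19187 CPM at 0 DAP and 13729, 14874 and 11732 CPM at 30 DAP. The 1 DAP libraries lay above all 6, by 0.56 (SE 0.13, edgeR adjusted p = 0.000796), and 5 DAP was below 1 DAP by -0.35 (SE 0.14, edgeR adjusted p = 0.0474). novel_miR_72 was higher by 0.43 (SE 0.13, edgeR adjusted p = 0.00822), with 2141, 2461 and 2324 CPM at 1 DAP, against 1932, 2100 and 2168 CPM at 0 DAP and 1081, 1479 and 1728 CPM at 30 DAP. Of its 1 DAP libraries the lowest overlapped the highest at 0 DAP.

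These rises are taken from the mean of both ends, and in each the 30 DAP mean was below that of 0 DAP. Above 0 DAP alone, the 1 DAP mean lay on the log2 scale by 0.32 for novel_miR_38 and 0.16 for novel_miR_72. It lay by 0.14 for novel_miR_81, 0.32 for novel_miR_10 and 0.24 for novel_miR_6. The other named rises at 1 DAP were less firm. novel_miR_81 was higher by 0.42 (SE 0.14, edgeR adjusted p = 0.0177), lost without replicate 2 of 1 DAP. Its 2405, 3289 and 2530 CPM at 1 DAP overlapped the 2529, 2691 and 2238 CPM at 0 DAP. At 30 DAP it had 1860, 1679 and 1501 CPM. novel_miR_10 was higher by 0.50 (SE 0.18, edgeR adjusted p = 0.0256), lost without replicate 3 of 0 DAP or replicate 2 of 1 DAP. Its 965, 1467 and 910 CPM at 1 DAP overlapped the 841, 1046 and 788 CPM at 0 DAP. At 30 DAP it had 638, 820 and 628 CPM. novel_miR_6 was higher by 0.53 (SE 0.22, edgeR adjusted p = 0.0459), with 696, 597 and 400 CPM at 1 DAP, and its call was lost without any 1 of 13 libraries, that is all but replicate 1 of 0 DAP, 3 of 1 DAP, 1 of 10 DAP, 3 of 20 DAP and 1 of 30 DAP, and with RLE factors or 1 name per identical pattern (edgeR adjusted p of 0.0542 and 0.0859).

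The falls at 1 DAP depended on the scaling. novel_miR_88 had 706, 881 and 736 CPM at 1 DAP, against 908, 1304 and 858 CPM at 0 DAP and 1187, 1180 and 1117 CPM at 30 DAP, with a log2 difference of -0.49 (SE 0.15, edgeR adjusted p = 0.012). The highest 1 DAP library overlapped the lowest of 0 DAP, and the call was lost without replicate 1 of 1 DAP. novel_miR_163 was lower by -0.41, novel_miR_130 by -0.38 and novel_miR_133 by -0.29, with edgeR adjusted p of 0.0256, 0.0328 and 0.0459. Without scaling factors these 4 differences turned to 0.02, 0.09, 0.14 and 0.22, and none was called. The calls of novel_miR_163 and novel_miR_130 were lost without replicate 1 or 3 of 1 DAP, the first also without replicate 1 or 2 and the second without replicate 3 of 30 DAP. That of novel_miR_133 was lost without replicate 1 or 3 of 1 DAP, 2 or 3 of 10 DAP, 3 of 20 DAP, or any of 30 DAP, and without the filter (edgeR adjusted p = 0.0544).

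**Figure D4:**
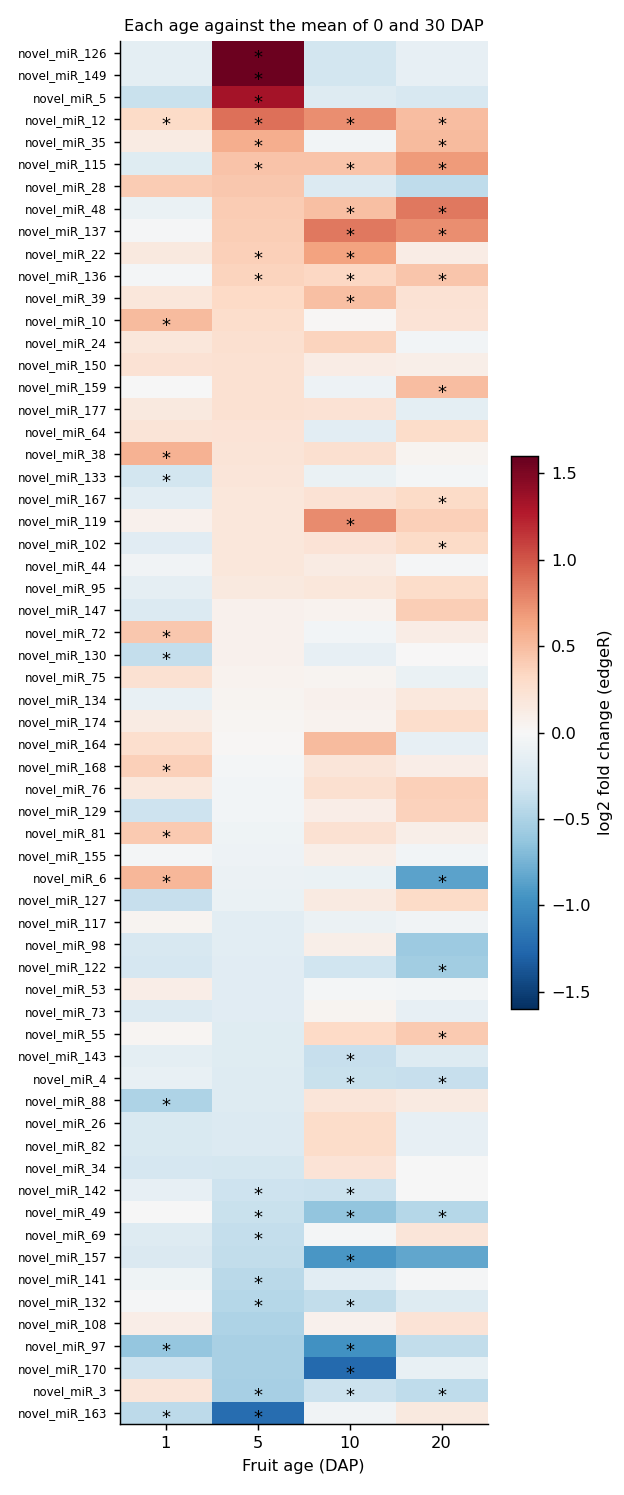
Log2 difference of each middle age (1, 5, 10 and 20 DAP) from the mean of 0 and 30 DAP for each of the 62 members (rows), as colour, with an asterisk where the edgeR adjusted p was under 0.05. Between 12 and 17 members are called per age, and only novel_miR_12 at all 4.

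Set together, 24 members were called at none of the 4 middle ages and 38 at 1 or more. Of these 38, 23 were called at exactly 1 age, 10 at 2, 4 at 3 and 1 at all 4. The same counts were not taken over all 204 tested names. Per age, between 38.2% and 55.4% of those names were called, against between 19.4% and 27.4% of the members. Part of that gap is fixed by the choice of members. A name whose levels at 0 and 30 DAP differ can be called where a middle age merely resembles 1 end. The 4 comparisons share the libraries of 0 and 30 DAP, so a call at several ages is not independent. Of the 40 named comparisons, 18 were called under every alternative tried. These were novel_miR_38 and novel_miR_72 at 1 DAP; novel_miR_126, novel_miR_149, novel_miR_5, novel_miR_12, novel_miR_163 and novel_miR_3 at 5 DAP; novel_miR_12, novel_miR_137, novel_miR_119, novel_miR_22, novel_miR_170 and novel_miR_97 at 10 DAP; and novel_miR_12, novel_miR_137, novel_miR_48 and novel_miR_115 at 20 DAP.

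The steps between neighbouring middle ages use no library of the selection. Between 5 and 1 DAP, 20 members were called, 11 higher and 9 lower at 5 DAP, beside 53.4% of all tested names (27.5% higher, 26% lower). Between 10 and 5 DAP, 11 were called, 6 higher and 5 lower at 10 DAP, beside 38.7% of all names (11.3% higher, 27.5% lower). Between 20 and 10 DAP, 3 were called, 2 higher and 1 lower at 20 DAP, beside 19.6% of all names (9.31% higher, 10.3% lower). Without scaling factors the counts higher and lower were 3 and 25, 18 and 3, and 1 and 13 in these comparisons, in the same order. The 2 higher were novel_miR_170 and novel_miR_159, which was higher by 0.58 (SE 0.18, edgeR adjusted p = 0.0354), and the 1 lower was novel_miR_22. Leaving out any 1 library of 20 or 10 DAP cut the 2 higher to 0 or 1. novel_miR_159, chosen here after its values were seen, had 3799, 3359 and 3575 CPM at 20 DAP, against 2271, 1645 and 3261 CPM at 10 DAP. Its 20 DAP libraries lay above those of 10 DAP and of every other age.

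Several members shared their course with another name. novel_miR_26 and novel_miR_82 had identical counts in all 18 libraries, as did novel_miR_126 and novel_miR_149, and novel_miR_102 and novel_miR_167 differed by less than 0.1 on the log2 scale in every library. The counts of novel_miR_102 over those of novel_miR_167 stayed between 0.985 and 1.05. Such pairs are counted as 2 members each above and may be 1 molecule. novel_miR_26 and novel_miR_82 were steady, with a range of 0.54, and higher at 10 than at 5 DAP by 0.51 (SE 0.18, edgeR adjusted p = 0.0346).

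Names of known families inside the same limits varied more in size. Of the 29 such names, 8 lay inside the limits (27.6%) and 7 of them were tested. Of those 7, 0 were steady, 2 peaking and 3 dipping. Some of the 7 share a family, as do cme-miR156d and cme-miR156j, and cme-miR159a and cme-miR159b. The difference between novel_miR names and those of known families was not tested. cme-miR166b, of the family that acts on class III HD-ZIP transcription factors, had a range of 2.43 and was lower at 10 DAP by -2.35 (SE 0.22, edgeR adjusted p = 9.5e-07). cme-miR162, of the family that acts on DICER-LIKE transcripts in Arabidopsis, was higher at 20 DAP by 1.26 (SE 0.19, edgeR adjusted p = 3.71e-05). cme-miR2111a was the 1 listed name from a short list of families known to move in phloem, and families outside that list were not searched. It had between 81.4 and 89.0 CPM at 0 DAP, 71.0 and 199.5 at 1 DAP, 355 and 659 at 5 DAP, 573 and 1151 at 10 DAP, 590 and 781 at 20 DAP, and 1060 and 2112 at 30 DAP. Its ranges at 0 and 1 DAP overlapped, as did those at 5, 10 and 20 DAP, and it lay lower at 0 than at 30 DAP. The part of vascular RNA in the members' levels was not tested.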

How the data were processed

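Flesh RNA was extracted with Trizol and the fraction below 100 nt was gel-purified, per the labels' protocols. Per the submitters' processing notes, the tools included fastp and BWA. For their versions, the genome build, the list of miRNAs and the treatment of reads that match several names, the sources used here give nothing. The deposited tables hold whole-number counts per miRNA name for each library, with no normalization by the authors. The 18 stage libraries were fitted together in edgeR 4.0.16 (R 4.3.3), with filterByExpr at its minimum count of 10, TMM factors, age as the only term and the quasi-likelihood F test. Benjamini-Hochberg adjustment ran over all 204 tested names within each comparison, and adjusted p under 0.05 was called. The comparison of a middle age with the mean of 0 and 30 DAP has weights orthogonal to their difference, which chose the members. The 6 libraries of 0 and 30 DAP nevertheless enter both. Their spread was unequal, with a median SD of 9.75% of the mean at 0 DAP and 16.4% at 30 DAP. Selection and comparison are therefore not independent.

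The members and lists were chosen with earlier results of these data known. Named are the 5 largest called differences per middle age and direction, the 8 steadiest members of at least 50 CPM, the 6 most abundant, the 2 names on each side of each limit and any identical copies; exceptions are marked. Alternatives were RLE factors (the size factors of DESeq2), no factors, no filter or a minimum count of 50, DESeq2 1.42.0, a replicate block, 1 name per identical pattern, pseudocounts of 1 and 10 CPM, other limits, and leaving out each library. Counts have no molecular identifiers, so precision covers counting and library error only.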

Additional observations from a re-analysis of the deposited data

How the results depend on the processing

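Whether the replicate numbers pair the libraries was not settled. Same-numbered libraries had deviations correlated at a median of 0.017 (from -0.248 to 0.796), over 0.1 in 17 of 45 pairs. For different-numbered libraries the median was 0.003 (from -0.71 to 0.599), over 0.1 in 30 of 90 pairs. Of the 18 libraries, 8 correlated best with their own number. A low median does not exclude pairing at some ages. Replicate 2 had the highest TMM factor of its age at 0, 1 and 10 DAP (1.39, 1.40 and 1.31). At the other ages it did not. With the replicate block all counts stayed within 1.5 times and no named call was lost. Membership ran from 53 to 66 names under other limits, pseudocounts and scalings, and from 56 to 62 with 1 library of 0 or 30 DAP left out.

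Removing the scaling factors had the widest effect. It left 12 steady, 2 peaking (without novel_miR_5) and 0 dipping members, turned novel_miR_88 (0.018), novel_miR_163 (0.089), novel_miR_130 (0.14) and novel_miR_133 (0.22) at 1 DAP and novel_miR_132 (0.0072) at 10 DAP, and gave 35 higher and 0 lower at 1 DAP, 2 lower at 5 DAP, 32 higher and 2 lower at 10 DAP, 1 lower at 20 DAP, 3 higher and 25 lower for 5 against 1 DAP, 18 higher and 3 lower for 10 against 5 DAP, and 1 higher and 13 lower for 20 against 10 DAP. RLE factors gave 3 dipping members (novel_miR_163 and novel_miR_97 added), 5 higher and 13 lower at 5 DAP, and 4 higher at 10 DAP. Without the filter there were 3 lower at 1 DAP, 5 higher at 5 DAP, and 6 higher and 15 lower for 5 against 1 DAP. A minimum count of 50 gave 11 higher for 10 against 5 DAP and 2 lower for 20 against 10 DAP. DESeq2 gave 8 lower at 1 DAP, 5 higher and 16 lower at 5 DAP, 11 higher for 10 against 5 DAP, and 4 higher and 2 lower for 20 against 10 DAP. With 1 name per identical pattern there were 4 higher and 8 lower at 1 DAP, 5 higher at 5 DAP, 15 higher and 5 lower at 10 DAP, 13 higher and 2 lower for 10 against 5 DAP, and 3 lower for 20 against 10 DAP. The causes were not tested.

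Leaving out 1 library at a time gave 51 to 54 steady, 3 peaking and 0 to 2 dipping members, and 25 to 38 called by the F test. The counts higher and lower ran from 3 to 9 and 1 to 10 at 1 DAP, 4 to 9 and 4 to 10 at 5 DAP, 4 to 12 and 5 to 9 at 10 DAP, 6 to 12 and 3 to 7 at 20 DAP, 6 to 12 and 2 to 16 for 5 against 1 DAP, 1 to 12 and 3 to 6 for 10 against 5 DAP, and 0 to 3 and 0 to 5 for 20 against 10 DAP. The lowest or highest of these came without replicate 2 (3 higher) or 1 (1 lower) of 1 DAP and replicate 2 of 0 DAP (10 lower) for 1 DAP, replicate 1 or 2 of 5 DAP (4 higher) for 5 DAP, replicate 2 of 10 DAP (4 higher) for 10 DAP, replicate 2 of 5 DAP (2 lower) and 2 or 3 of 30 DAP (16 lower) for 5 against 1 DAP, and replicate 2 of 10 DAP (1 higher) or 1 of 20 DAP (12 higher) for 10 against 5 DAP. Counts of calls by age thus moved with single libraries. The 18 comparisons called throughout were picked for holding under these same alternatives, so that they hold is no separate evidence. Among them novel_miR_126 and novel_miR_149 are 1 pattern. At totals of 62050 to 153755 counts, the 95% intervals of the members' differences had a median half-width of 0.33 on the log2 scale. Changes larger than that can also go uncalled.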
